A study of Mus musculus with 10 samples.

Results

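The set described here is made up of 10 genes, the transcription factors that direct the secretory lineages of the intestinal epithelium, namely Atoh1, Spdef, Gfi1, Foxa1, Foxa2, Foxa3, Neurog3, Neurod1, Sox4 and Sox9. They were taken by name, for the lineage each is known to direct, from the 54838 genes listed for each library. The choice was made with earlier results of these data known. All 10 were among the 14719 genes abundant enough to be tested. The libraries were made from polyadenylated RNA of jejunal crypts, 5 from WT and 5 from Arid3a conditional knockout (Arid3a cKO) animals, each from a single mouse. Mice of both genotypes had been dosed with tamoxifen on 3 days and were killed 1 month after the first dose. In Arid3a cKO animals the floxed Arid3a alleles are deleted by a tamoxifen-activated Cre recombinase under the Villin promoter, which is active in the epithelium, so stromal and immune cells in a crypt preparation keep the gene. The labels do not give the age of the animals or whether WT animals carried the Cre, and the animal identifiers fall into a different series for each genotype, so colony and genotype cannot be told apart.

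Every epithelial cell of the crypt descends from Lgr5+ stem cells, and the choice between the absorptive and the secretory fate is made by NOTCH signalling. Progenitors with active NOTCH express HES1, which represses Atoh1, whereas progenitors that present DLL1 and DLL4 to their neighbours escape NOTCH, express the basic helix-loop-helix factor ATOH1 and become secretory. Below ATOH1, the zinc finger repressor GFI1 holds cells on the goblet and Paneth path, the ETS factor SPDEF drives their maturation, NEUROG3 and then NEUROD1 direct enteroendocrine cells, the forkhead proteins FOXA1, FOXA2 and FOXA3 act in goblet and enteroendocrine cells, and the HMG-box factors SOX9 and SOX4 act in progenitors and in Paneth, enteroendocrine and tuft cells.

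The promoters of 4 members are shown, 1 for each role in which a member was lower in Arid3a cKO crypts: the master factor Atoh1, the maturation factor Spdef, the forkhead gene Foxa1 and the progenitor factor Sox4. The result for Sox4 was near the threshold and was lost in most fits that left out 1 animal. Each is the 250 bases before the RefSeq start site on GRCm38.p6, 5′ to 3′ on the strand of the gene, at chr6:64728875-64729124 (plus strand) for Atoh1, chr17:27728952-27729201 (minus) for Spdef, chr12:57546112-57546361 (minus) for Foxa1 and chr13:28953700-28953949 (minus) for Sox4. Capitals mark a match, on either strand, to one of the motifs searched, which were the E-boxes CAGATG and CAGCTG, the forkhead motif TGTTTAC, the HES-type E-box CACGTG, and the HES N-boxes CACGAG and CACAAG.
Atoh1: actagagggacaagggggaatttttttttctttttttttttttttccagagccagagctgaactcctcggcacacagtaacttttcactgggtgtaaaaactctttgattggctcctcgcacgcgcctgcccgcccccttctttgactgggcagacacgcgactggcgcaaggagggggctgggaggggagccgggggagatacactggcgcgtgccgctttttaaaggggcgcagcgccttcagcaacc
Spdef: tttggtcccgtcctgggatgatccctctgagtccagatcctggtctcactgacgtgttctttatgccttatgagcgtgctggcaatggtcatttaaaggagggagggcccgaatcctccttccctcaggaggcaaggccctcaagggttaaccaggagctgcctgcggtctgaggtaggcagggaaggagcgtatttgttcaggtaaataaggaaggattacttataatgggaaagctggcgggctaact
Foxa1: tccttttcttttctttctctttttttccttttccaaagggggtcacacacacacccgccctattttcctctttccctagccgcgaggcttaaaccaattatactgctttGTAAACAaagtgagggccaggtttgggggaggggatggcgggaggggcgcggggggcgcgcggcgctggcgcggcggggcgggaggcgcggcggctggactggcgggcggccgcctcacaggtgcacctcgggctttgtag
Sox4: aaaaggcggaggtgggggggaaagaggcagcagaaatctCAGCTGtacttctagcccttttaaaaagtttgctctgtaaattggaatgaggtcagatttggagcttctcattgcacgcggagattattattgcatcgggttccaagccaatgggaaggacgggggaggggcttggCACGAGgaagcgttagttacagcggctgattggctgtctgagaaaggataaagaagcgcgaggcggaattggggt
RefSeq promoters, each running from 250 bases before to 50 bases after a start site, were found for 9 of the 10 members, in 12 windows because Foxa2 and Gfi1 have more than 1 start. Sox9 had no entry and was not searched. A forkhead motif on the minus strand of Foxa1, which reads GTAAACA on the printed strand, lay 141 to 135 bases before the start, and 3.65% of all 32851 promoters of this length hold that motif. Sox4 held CAGCTG 211 bases and CACGAG 75 bases before its start, against 16.3% and 6.47% of all promoters. CAGCTG, which reads the same on both strands, was also found in Neurog3, CACGAG in Neurod1 and CACAAG (15.5% of all promoters) in Foxa2. The windows of Atoh1, Spdef, Foxa3 and Gfi1 held none of these letters, and 5 of the 12 windows held a match. None of the 9 members searched held CAGATG or CACGTG in these windows, which 17.2% and 7.15% of all promoters hold.

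The targeted gene was examined first. Arid3a (ENSMUSG00000019564, chromosome 10, 79927043 to 79955018, plus strand) was read at 1.91, 2.07, 2.75, 2.68 and 2.69 CPM (counts scaled to a common normalized library size) in WT replicates 1 to 5 and at 0.30, 0.52, 0.49, 0.88 and 1.17 CPM in Arid3a cKO replicates 1 to 5, from 55 to 81 counts against 9 to 31. The groups did not overlap, every library went with its label, and the level fell by 1.84 ± 0.316 (SE) on the log2 scale (quasi-likelihood test of edgeR, Benjamini-Hochberg adjusted p over all genes tested = 0.00204, the test behind each edgeR adjusted p given here). Libraries held 27050455 to 31053622 counts. Over all genes tested, 28.3% passed an adjusted p of 0.05, 15.6% higher and 12.7% lower in Arid3a cKO (2298 and 1869 genes). Groups did not overlap for 19.6% of these genes (12.0% higher, 7.63% lower). Without normalization factors the split was 1541 higher and 4030 lower. In the authors' TPM (a level per length) it was 1356 higher and 2555 lower, by another test (limma on log2 TPM with 0.1 added) over 18249 genes.

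Of the 10 secretory factors, 6 were lower in Arid3a cKO crypts past that threshold (Atoh1, Spdef, Foxa1, Foxa2, Foxa3 and Sox4), none was higher, and 4 did not pass (Gfi1, Neurog3, Neurod1 and Sox9). Against the 12.7% of all genes that were lower, this was 60.0% of the members, a set chosen with earlier results of these data known. Foxa2 and Sox4 passed narrowly (edgeR adjusted p = 0.0460 and 0.0457), and each lost its call in 8 of the 10 fits that left out 1 animal. Over those fits, 4 to 7 members passed. The log2 differences of the members were negative for 9 of 10, beside 7964 of all 14719 genes tested. Their median was -0.36, beside -0.03 over all genes tested. For 4 of the 10 (Atoh1, Spdef, Foxa1 and Foxa3) the groups did not overlap, beside 7.63% of all genes tested that were lower without overlap. The exception in sign was Neurod1. In bulk RNA, fewer cells that express a factor and less of its RNA in each cell cannot be told apart.

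**Figure D1:**
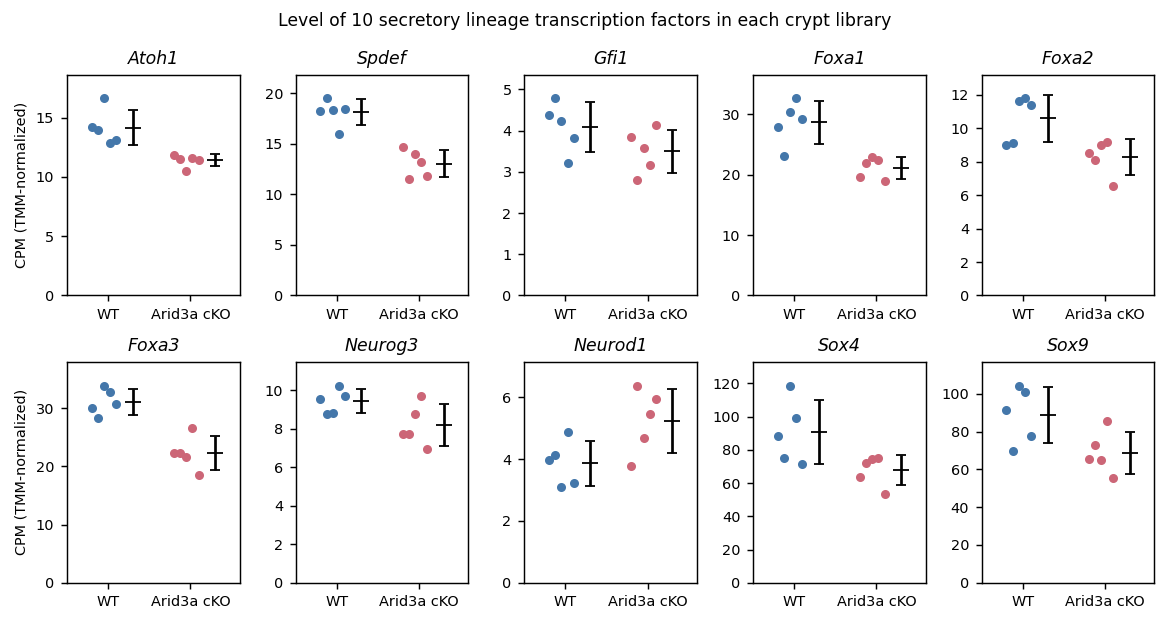
Normalized level (CPM on TMM library sizes, vertical axis from 0) of each of the 10 factors in every crypt library, with points for the 5 WT (blue) and 5 Arid3a cKO (red) animals in replicate order, and bars for the mean ± SD. The Arid3a cKO points of Atoh1, Spdef, Foxa1 and Foxa3 all lie below the WT points, and Neurod1 is the only factor whose Arid3a cKO mean (5.24 CPM) is above its WT mean (3.86 CPM).

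Atoh1 (ENSMUSG00000073043, chromosome 6, 64729125 to 64731245, plus strand), the factor that opens the secretory fate, was read at 14.17, 13.98, 16.63, 12.83 and 13.13 CPM in the WT libraries and at 11.83, 11.54, 10.53, 11.63 and 11.43 CPM in the Arid3a cKO libraries. All 5 Arid3a cKO values lay below all 5 WT values, and they were closer together. The mean went from 14.1 ± 1.497 to 11.4 ± 0.505 CPM (SD, n = 5), and Atoh1 fell by 19.5%, a log2 difference of -0.31 ± 0.0872 (SE; edgeR, adjusted p = 0.0193). In TPM the groups did not overlap either (7.65 to 10.8 against 6.19 to 7.39). The call was kept without each animal in turn, at differences of -0.35 to -0.25 (largest adjusted p in edgeR 0.0497), and was lost without WT replicates 3 and 4 together (-0.27, edgeR adjusted p = 0.0650).

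Spdef (ENSMUSG00000024215, chromosome 17, 27714352 to 27728955, minus strand), the maturation factor of goblet and Paneth cells, was read at 18.21, 19.49, 18.33, 15.98 and 18.40 CPM in WT and at 14.66, 11.54, 13.95, 13.19 and 11.77 CPM in Arid3a cKO. The lowest WT library, replicate 4, was above the highest Arid3a cKO library. Spdef fell by 27.9%, from 18.1 ± 1.28 to 13.0 ± 1.35 CPM (SD, n = 5; log2 difference -0.47 ± 0.0903, edgeR adjusted p = 0.00352). Its call was kept without WT replicates 3 and 4 (log2 difference -0.52, edgeR adjusted p = 0.0120), as was that of Foxa3. For Spdef that choice took away its lowest WT library, so the result does not set Spdef apart from members that were highest in the pair.

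Gfi1 (ENSMUSG00000029275, chromosome 5, 107716657 to 107726036, minus strand), the repressor that keeps ATOH1+ cells from the enteroendocrine path, was read at 4.39, 4.79, 4.24, 3.22 and 3.82 CPM in WT and at 3.84, 2.80, 3.57, 3.16 and 4.13 CPM in Arid3a cKO, from 76 to 139 counts a library. The groups overlapped, and the log2 difference of -0.22 ± 0.155 did not pass the test (edgeR adjusted p = 0.297). Its paralogue Gfi1b, a factor of tuft cells and of blood cells, was at 0.649 ± 0.0975 CPM in WT and 1.05 ± 0.157 CPM in Arid3a cKO (SD, n = 5; log2 difference 0.69, edgeR adjusted p = 0.0326), with no overlap. Gfi1 was also the member with the lowest p for a difference in the mean length of the transcripts assigned to it, which RSEM estimates from the mix of 4 isoforms: 2687.04 ± 16.1 bases in WT and 2573.96 ± 154 bases in Arid3a cKO (SD, n = 5; two-sided exact permutation test, p = 0.0317, adjusted over the 5 members whose length varied p = 0.159). None of those 5 members passed.

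The 3 forkhead genes are described together. Foxa1 (ENSMUSG00000035451, chromosome 12, 57540628 to 57546916, minus strand) was read at 27.89, 23.04, 30.41, 32.63 and 29.13 CPM in WT and at 19.51, 21.86, 22.83, 22.41 and 18.89 CPM in Arid3a cKO. The groups did not overlap in CPM, though in TPM the highest Arid3a cKO library (9.31) and the lowest WT library (9.29) met. Foxa1 fell by 26.3%, from 28.6 ± 3.58 to 21.1 ± 1.78 CPM (SD, n = 5; log2 difference -0.44 ± 0.0968, edgeR adjusted p = 0.00678), and at -0.34 lost its call without WT replicates 3 and 4 (edgeR adjusted p = 0.0528).

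Foxa3 (ENSMUSG00000040891, chromosome 7, 19013284 to 19023538, minus strand) was read at 29.98, 28.34, 33.90, 32.86 and 30.66 CPM in WT and at 22.31, 22.27, 21.54, 26.66 and 18.54 CPM in Arid3a cKO, with no overlap. It fell by 28.5%, the largest fall of the 10 members in this fit (31.1 ± 2.24 to 22.3 ± 2.90 CPM, SD, n = 5; log2 difference -0.48 ± 0.0934, edgeR adjusted p = 0.00369). Foxa2 (ENSMUSG00000037025, chromosome 2, 148042877 to 148046969, minus strand) was read at 8.98, 9.13, 11.61, 11.79 and 11.38 CPM in WT and at 8.53, 8.11, 9.02, 9.18 and 6.55 CPM in Arid3a cKO. WT replicates 1 and 2 of Foxa2 fell within the Arid3a cKO range. The log2 difference of Foxa2 was -0.35 ± 0.121 (edgeR adjusted p = 0.0460), and its call was kept when WT replicate 1 or WT replicate 2 was left out but lost without any 1 of the other 8 animals (differences of -0.41 to -0.28 over all 10, highest edgeR adjusted p 0.109).

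The mix of the 3 forkhead RNAs was computed after their values had been seen, and was not tested. Foxa1 made up 30.1 ± 1.39% of their summed TPM in WT and 30.3 ± 1.88% in Arid3a cKO, Foxa2 17.6 ± 1.09% and 18.8 ± 0.862%, and Foxa3 52.3 ± 1.71% and 50.8 ± 2.02% (SD, n = 5), while the sum itself went from 39.8 ± 5.31 to 27.3 ± 3.72 TPM. Each of the 3 shares overlapped between the genotypes.

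Neurog3 (ENSMUSG00000044312, chromosome 10, 62133090 to 62134763, plus strand), which commits progenitors to the enteroendocrine lineage, was read at 9.54, 8.78, 8.82, 10.25 and 9.71 CPM in WT and at 7.75, 7.74, 8.78, 9.73 and 6.93 CPM in Arid3a cKO. The groups overlapped, with 4 Arid3a cKO libraries below the lowest WT library, and the log2 difference of -0.20 ± 0.105 did not pass (edgeR adjusted p = 0.169). Neurog3 lies within the antisense gene Fam241b and shares 278 transcript bases with it. With the counts of both genes added, the difference was 0.02 (edgeR adjusted p = 0.830).

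Neurod1 (ENSMUSG00000034701, chromosome 2, 79452521 to 79456751, minus strand), which follows Neurog3 as enteroendocrine cells differentiate, was read at 3.97, 4.13, 3.09, 4.89 and 3.24 CPM in WT and at 3.77, 6.38, 4.69, 5.44 and 5.94 CPM in Arid3a cKO. Of the Arid3a cKO libraries, 3 were above every WT library, and replicates 1 and 3 were within the WT range. The means were 3.86 ± 0.730 and 5.24 ± 1.03 CPM (SD, n = 5), a log2 difference of 0.44 ± 0.175 that did not pass (edgeR adjusted p = 0.0783). It passed without Arid3a cKO replicate 1 (0.54, edgeR adjusted p = 0.0405).

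Sox9 (ENSMUSG00000000567, chromosome 11, 112782224 to 112787760, plus strand), a WNT target of crypt progenitors that Paneth cells need, was read at 91.32, 69.84, 104.42, 100.76 and 77.68 CPM in WT and at 65.51, 72.85, 65.04, 85.52 and 55.52 CPM in Arid3a cKO. The groups overlapped, and the log2 difference of -0.37 ± 0.131 did not pass (edgeR adjusted p = 0.0543). It passed without WT replicate 2 (-0.44, edgeR adjusted p = 0.0188) or without Arid3a cKO replicate 4 (-0.45, edgeR adjusted p = 0.0240).

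Sox4 (ENSMUSG00000076431, chromosome 13, 28948919 to 28953713, minus strand), a progenitor factor upstream of enteroendocrine and tuft cells, was read at 88.32, 74.97, 118.67, 98.98 and 71.46 CPM in WT and at 63.79, 72.22, 74.38, 75.05 and 53.55 CPM in Arid3a cKO. WT replicates 2 and 5 lay within the range of the Arid3a cKO libraries. Sox4 fell by 25.1% (90.5 ± 19.2 to 67.8 ± 9.14 CPM, SD, n = 5; log2 difference -0.42 ± 0.141, edgeR adjusted p = 0.0457). That call was kept without WT replicate 2 or WT replicate 5 and lost without any 1 of the other 8 animals (differences of -0.48 to -0.30 over all 10, highest edgeR adjusted p 0.104). Sox4 also shares 2616 transcript bases with the antisense noncoding gene Gm26735, to which 0 to 228.49 counts were assigned in WT and 154.46 to 576.27 in Arid3a cKO, and with both genes added the difference was -0.27 (edgeR adjusted p = 0.152).

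**Figure D2:**
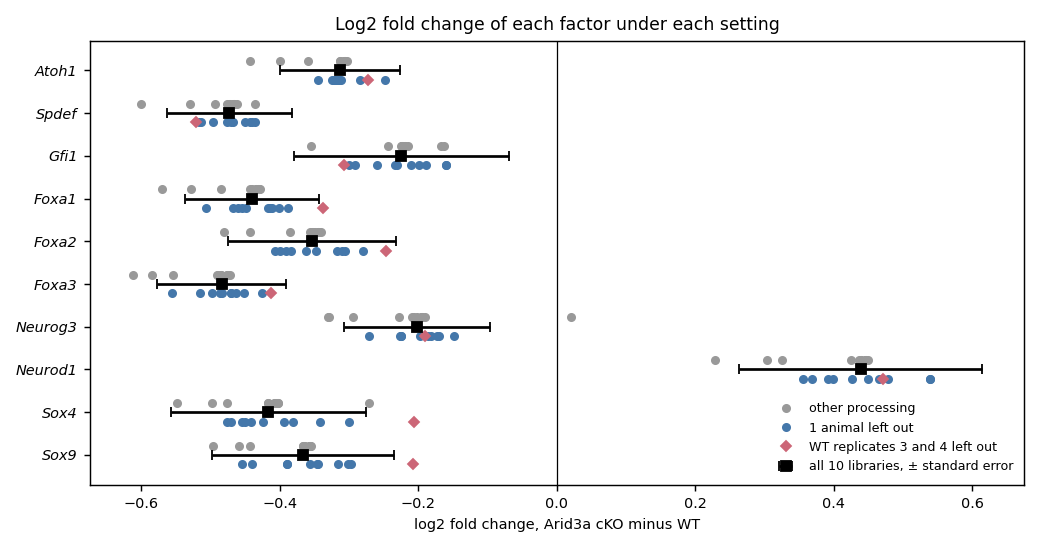
Log2 fold change (Arid3a cKO minus WT, horizontal axis) of each factor with all 10 libraries (black square, bar ± SE), under other processing (grey), without 1 animal (blue) and without WT replicates 3 and 4 (red diamond). Points of 9 factors stay on 1 side of 0, and Neurog3 has a single point to the right of it, 0.02, from adding the counts of the antisense gene Fam241b.

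Levels of different members can be set side by side in TPM. In WT crypts the order of mean TPM was Sox9 (28.6 ± 6.16, SD, n = 5), Sox4 (25.1 ± 6.33), Foxa3 (20.8 ± 2.41), Spdef (14.7 ± 1.19), Foxa1 (12.0 ± 2.01), Atoh1 (9.04 ± 1.15), Neurog3 (8.81 ± 0.850), Foxa2 (7.02 ± 1.06), Gfi1 (2.03 ± 0.277) and Neurod1 (1.91 ± 0.450). In Arid3a cKO crypts it was Sox9 (20.7 ± 4.07), Sox4 (17.4 ± 2.67), Foxa3 (13.9 ± 2.34), Spdef (10.2 ± 1.40), Foxa1 (8.24 ± 0.843), Neurog3 (7.06 ± 1.34), Atoh1 (6.80 ± 0.468), Foxa2 (5.13 ± 0.704), Neurod1 (2.40 ± 0.451) and Gfi1 (1.70 ± 0.192). The first 5 places were the same in both genotypes. Neighbours that did not separate in every library were Atoh1 and Neurog3, of which Atoh1 was the higher in 3 of 5 WT libraries and 3 of 5 Arid3a cKO libraries, and Gfi1 and Neurod1, of which Gfi1 was the higher in 4 of 5 WT libraries and Neurod1 in 4 of 5 Arid3a cKO libraries. In WT alone, Sox4 was above Foxa3 and Spdef above Foxa1 in 4 of 5 libraries, and in all 5 of Arid3a cKO. The other neighbours kept their order in every library of a genotype.

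To ask whether a factor moved apart from Atoh1, the log2 ratio of its TPM to that of Atoh1 was taken within each library. The ratios of Spdef, Foxa1, Foxa2, Foxa3, Sox4 and Sox9 were lower by 0.05 to 0.18 in Arid3a cKO, those of Gfi1 and Neurog3 higher by 0.15 and 0.07, and none of the 9 ratios passed after adjustment (two-sided exact permutation test with Benjamini-Hochberg adjustment over 9 ratios, adjusted p = 0.143 to 0.738). The Neurod1 ratio had the lowest p, going from -2.26 ± 0.378 to -1.52 ± 0.307 (SD, n = 5; difference 0.74, two-sided exact permutation p = 0.0159, adjusted p = 0.143), with ranges that overlapped. With 5 animals against 5, a single ratio could not pass 0.05 after adjustment over 9 ratios, even with groups fully apart. These tests therefore cannot decide whether any 1 factor alone moved apart from Atoh1. Relative to Neurog3, a ratio chosen after the values were seen and not tested, Neurod1 was at 0.216 ± 0.0418 in WT (0.165 to 0.256) and 0.350 ± 0.0969 in Arid3a cKO (0.261 to 0.466), without overlap. The ranges nearly met, and the ratio was not recomputed with the counts of the antisense gene Fam241b added to those of Neurog3.

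**Figure D3:**
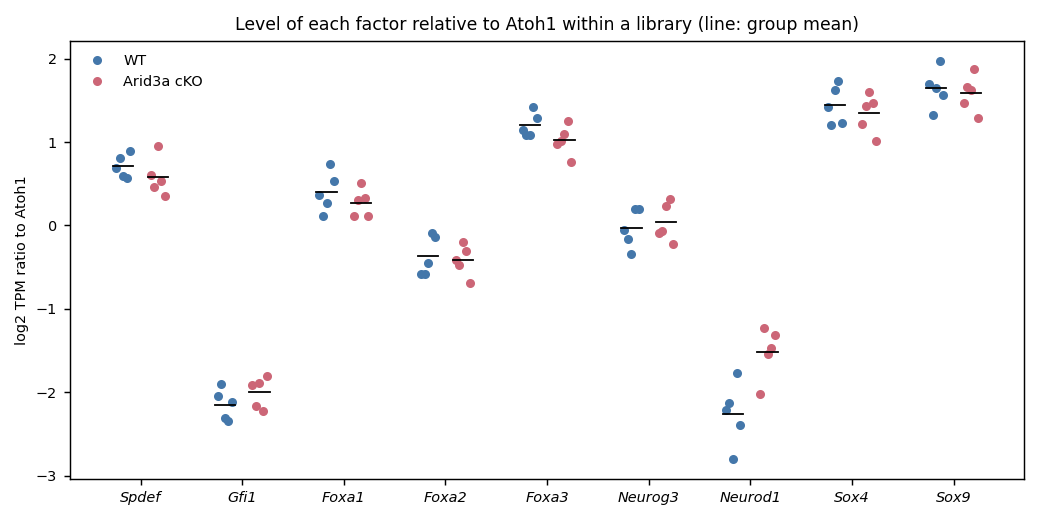
Log2 ratio of the TPM of each of 9 factors to the TPM of Atoh1 in the same library (vertical axis), with points for WT (blue) and Arid3a cKO (red) animals and a line for each group mean. The groups overlap for every factor, and the widest gap between means is that of Neurod1 (-2.26 in WT, -1.52 in Arid3a cKO).

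Genes that work with these factors were counted from a fixed list of 30 partners. Of 28 tested, 7 were lower, 2 were higher and 19 did not pass, with a median log2 difference of -0.01. That is 25.0% lower and 7.14% higher, beside 12.7% and 15.6% of all genes tested. Among those lower were Dll1 and Dll4, the NOTCH ligands of secretory progenitors, at -0.26 and -0.40 (edgeR adjusted p = 0.0296 and 0.0101), and the ATOH1 target Hes6 at -0.38 (edgeR adjusted p = 0.00897). Bhlha15, which builds the secretory apparatus, went from 19.0 ± 4.41 to 9.41 ± 1.37 CPM (SD, n = 5; -1.01, edgeR adjusted p = 0.00151), a wider fall than that of any member. The corepressor Rcor2 (-0.64), the stem cell factor Ascl2 (-0.57) and the secretory pathway regulator Creb3l4 (-0.37) were lower too. Klf4, a factor of goblet cells and of differentiated epithelium, rose from 39.3 ± 3.86 to 64.0 ± 11.3 CPM (SD, n = 5; 0.70, edgeR adjusted p = 0.00165), and Gfi1b, above, was the other partner that was higher. The enteroendocrine factors Insm1 (0.19) and Nkx2-2 (0.12), the tuft cell factor Pou2f3 (0.21) and the secretory stress regulator Xbp1 (0.02) did not pass (edgeR adjusted p = 0.195 to 0.907). Other enteroendocrine factors that did not pass had either sign. Among them were Pax4 (-0.43), Rfx3 (-0.02), Pax6 (0.26) and Rfx6 (0.29), at edgeR adjusted p = 0.168 to 0.962. The remaining 2 partners were too low to test.

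Of 12 NOTCH pathway genes tested from a list of 15, 2 were lower, none was higher and 10 did not pass (median -0.26). The share of this list that was lower, 16.7%, was near the 12.7% of all genes tested. That share leaves out the NOTCH ligands Dll1 and Dll4, both lower, and Mfng, which did not pass. All of these were counted among the partners above. The lower genes were Nrarp, a NOTCH target that restrains the pathway (59.7 ± 11.2 to 40.3 ± 2.32 CPM, SD, n = 5; -0.57, edgeR adjusted p = 0.00463), and Lfng, which modifies NOTCH receptors (-0.43, edgeR adjusted p = 0.0239). Hes1, the repressor of Atoh1, was at 49.9 to 71.5 CPM in WT and 44.3 to 69.8 CPM in Arid3a cKO (-0.10, edgeR adjusted p = 0.572), and the receptor Notch1 did not pass at -0.58 (edgeR adjusted p = 0.0605). The count of 2 became 6 without WT replicate 2 and 5 without WT replicate 5, and 1 without WT replicate 3, WT replicate 4, Arid3a cKO replicate 1 or Arid3a cKO replicate 2.

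The products of the 4 lineages were counted in the same way, beside 15.6% of all genes higher and 12.7% lower. Of 9 Paneth products, 7 were lower and 2 did not pass (median -0.60). Lyz1, the lysozyme of Paneth granules, was at 5063 to 9342 CPM in WT and 3779 to 5050 CPM in Arid3a cKO (-0.60, edgeR adjusted p = 0.0134). Mmp7, the protease that activates alpha-defensins, was lower by more (-1.01, edgeR adjusted p = 0.00678), as was the Paneth pentraxin Mptx2 (-1.29, edgeR adjusted p = 0.0268). The alpha-defensins Defa17 (-0.76) and Defa24 (-0.54) were lower too, though reads of near-identical defensin genes are divided among copies.

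Of 9 goblet products tested, 2 were lower (Ccl6 at -0.60 and Klk1 at -0.29, edgeR adjusted p = 0.0152 and 0.0464), none was higher and 7 did not pass. Their median was 0.06, and -0.07 without normalization factors and -0.04 without WT replicates 3 and 4. Tff3, the trefoil peptide secreted with mucin, was at 0.06 and the lectin-like Zg16 at 0.59, the latter with values of 168 to 739 CPM in WT and 453 to 840 CPM in Arid3a cKO (edgeR adjusted p = 0.777 and 0.225). Spink4 was at -0.32 (edgeR adjusted p = 0.0941). The summed TPM of goblet products overlapped (3599 to 5766 in WT, 4342 to 5064 in Arid3a cKO), while that of Paneth products did not (45257 to 66272 against 26122 to 36316). Most of the Paneth sum is Defa24, Defa17 and Lyz1, at means of 20561.5, 11772.6 and 5943 TPM over all libraries. The count of 2 goblet products was kept without WT replicate 1, WT replicate 5 or Arid3a cKO replicate 1, became 1 without any 1 of the other 7 animals, and was 4 with library size only or in the TPM fits.

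All 14 enteroendocrine products tested had a positive difference (median 0.43), beside 6755 of all 14719 genes tested. Past the threshold, 7 were higher and none was lower. Ghrl, which encodes ghrelin, was at 12.9 to 18.3 CPM in WT and 20.1 to 28.7 CPM in Arid3a cKO (0.68, edgeR adjusted p = 0.00290). Tph1, the rate-limiting enzyme of serotonin synthesis in enterochromaffin cells (0.56), the granin Chgb (0.43) and somatostatin, Sst (0.44), rose as well, and the incretin Gip (0.29) did not pass (edgeR adjusted p = 0.00388, 0.0130, 0.0317 and 0.191). The count of 7 became 11 without WT replicate 2, 4 without WT replicate 3, and 2 with library size only or in the TPM fits. The summed TPM of the list overlapped (516 to 669 in WT, 640 to 855 in Arid3a cKO) and did not pass (two-sided exact permutation p = 0.0317, adjusted over 12 lists p = 0.0544).

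Of 8 tuft products tested, 5 were higher and 3 did not pass (median 0.26). Rgs13, a regulator of G protein signalling, was at 9.81 to 12.6 CPM in WT and 14.6 to 21.4 CPM in Arid3a cKO (0.70, edgeR adjusted p = 0.00155), and the adaptor Sh2d6 (0.49) was higher too. The leukotriene pathway gene Alox5ap (0.27) did not pass (edgeR adjusted p = 0.0711). The count of 5 became 3 without Arid3a cKO replicate 1, 3 or 4, and 3 with library size only, without a filter, with the effective length offset or in the TPM fits. The summed TPM of the list also overlapped (78.6 to 86.8 in WT, 85.0 to 107.0 in Arid3a cKO; two-sided exact permutation p = 0.0238, adjusted over 12 lists p = 0.0476), and the mean log2 TPM of the list did not pass (adjusted p = 0.0952 by the same exact test).

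**Figure D4:**
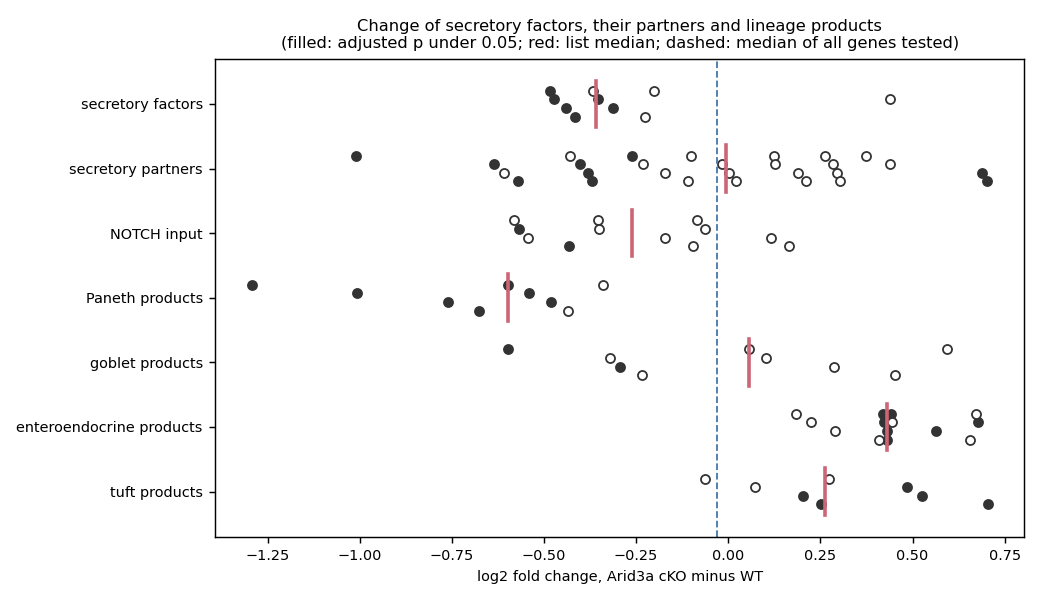
Log2 fold change (Arid3a cKO minus WT, horizontal axis) of each tested gene in 7 lists, with filled points past an edgeR adjusted p of 0.05, open points not past it, a red bar for the median of each list and a dashed line for the median of all genes tested (-0.03). The medians of the secretory factors (-0.36) and of Paneth products (-0.60) lie to the left of that line, and those of enteroendocrine (0.43) and tuft products (0.26) to the right.

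Marker RNA of other crypt cell types differed between and within the groups. All 8 enterocyte markers, among them Alpi, Apoa4, Fabp1 and Sis, were higher in Arid3a cKO, with summed TPM of 955 to 5342 (median 2548) in WT and 5655 to 11148 (median 8569) in Arid3a cKO (two-sided exact permutation p = 0.00794, adjusted over 12 lists p = 0.0238). The summed TPM of 4 stem cell markers (Lgr5, Olfm4, Smoc2 and Ascl2, the last also among the partners) was 2271 to 4178 in WT and 1669 to 2713 in Arid3a cKO (two-sided exact permutation p = 0.0238, adjusted p = 0.0476). Most of that sum is Olfm4, at a mean of 2542 TPM beside 99.5 for Smoc2, 21.9 for Ascl2 and 13.7 for Lgr5. Gene by gene, Olfm4, Smoc2 and Ascl2 were lower, and Lgr5 did not pass (-0.17, edgeR adjusted p = 0.653). WT replicates 3 and 4 had the lowest enterocyte sums (1534 and 955) and the highest stem cell sums (4137 and 4178) of all libraries, and the same pair was highest of all for Foxa1, Foxa2, Foxa3, Sox4 and Sox9. Without that pair, 2 of the 6 member calls were kept, all 10 differences kept their sign, and the median was -0.26 beside -0.02 over all genes. Leaving out the WT libraries that are highest for a member narrows its difference, and fewer WT animals remain, so these calls do not rank the members. The part of these marker differences in the result was not tested.

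Markers of cells outside the epithelium were low. Summed TPM was 20.2 to 60.5 in WT and 6.89 to 18.6 in Arid3a cKO for 6 B and plasma cell markers, 29.3 to 78.9 and 33.0 to 80.1 for 7 T cell markers, 26.6 to 66.9 and 16.6 to 94.3 for 6 myeloid markers, 3.89 to 41.8 and 3.65 to 50 for 6 stromal markers, and 1.21 to 2.90 and 0.45 to 1.19 for 4 endothelial markers. The B and plasma cell and the endothelial sums did not overlap (two-sided exact permutation p = 0.00794, adjusted p = 0.0238 for each), and the other 3 did. Neuron and glia markers were at 0.28 to 0.89 TPM in all libraries. Their part in the result was not tested.

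Members also varied among animals of 1 genotype. With each genotype centred on its own mean, Foxa3 and Sox9 ran most alike over the 10 libraries (Pearson's r = 0.895), followed by Sox4 and Sox9 (0.865), Foxa2 and Foxa3 (0.800) and Foxa1 and Foxa2 (0.773), while Atoh1 and Spdef had r = 0.167. Spdef and Neurod1 (r = -0.794) and Gfi1 and Foxa1 (r = -0.776) ran most opposite. Arid3a cKO replicate 5 had the lowest level of all 10 libraries for Foxa1, Foxa2, Foxa3, Neurog3, Sox4 and Sox9. The marker sums above also varied among these libraries, and the values are a description.

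By the same measure, over 12403 genes, the nearest gene was Fam20c for Atoh1 (r = 0.891), Abhd18 for Spdef (0.930), Rps6kc1 for Gfi1 (0.929), Slain1 for Foxa1 (0.981), Mfsd10 for Foxa2 (0.952), Zfp503 for Foxa3 (0.947), Zfp821 for Neurog3 (0.939), Nsrp1 for Neurod1 (0.914), Fgfrl1 for Sox4 (0.983) and Olfm4, a stem cell marker, for Sox9 (0.976). Next in order were Sytl2 and Rere for Atoh1, Triobp and Lcn2 for Spdef, Rnf14 and Gm49463 for Gfi1, Bcl7a and Pde3b for Foxa1, and Paqr8 and Pdx1 for Foxa2. For the remaining members they were Lamb3 and Ak7 (Foxa3), AV356131 and Zscan21 (Neurog3), Dennd6b and Rpl14-ps1 (Neurod1), Sh3rf1 (Sox4) and Soat1 and Slc1a2 (Sox9). With 10 libraries and 12403 genes compared, these values are a description only.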

How the data were processed

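Crypt RNA of 10 mice, 5 of each genotype, had been sequenced as poly(A) libraries, 1 for each animal. The authors aligned reads with STAR and quantified genes with RSEM on GRCm38, and deposited for each library the expected count, TPM, FPKM, length and effective length of each gene. FPKM was not used. The strand setting is not given in the sources used here. Counts of genes without a symbol made up 0.0193% of the total and stayed in the library sizes.

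Expected counts were rounded and fitted in R 4.3.3 with edgeR 4.0.16 (filterByExpr with minimum count 10 and minimum total 15, TMM factors, robust glmQLFit and glmQLFTest, Benjamini-Hochberg adjustment over 14719 genes, threshold 0.05). CPM values use TMM library sizes, and ± after a log2 difference is its standard error. Single values were compared by two-sided exact permutation tests, for which 5 animals against 5 can give no p below 0.00794, on log2 TPM with 0.01 added for ratios. Gene coordinates are from GENCODE M21 (GRCm38), matched by Ensembl identifier. Totals of about the same size in each library leave the factors at 76 to 3497 counts, so counting error is smallest for Sox4 and Sox9 and largest for Gfi1 and Neurod1.

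The members and gene lists were chosen with earlier results of these data known. Named genes were Arid3a, the members, genes of the partner and NOTCH lists, the 3 product genes of each lineage with the highest mean TPM and the 3 with the largest change past the threshold, and the 3 nearest genes of each member. Marker genes of other cells were named as lists. A few genes named by these rules are counted in their lists but not reported here by name. The fit was repeated with library size only, with RLE factors, in DESeq2 1.42.0, and with other count filters, unrounded counts, an effective length offset, limma-voom and limma on log2 TPM (limma 3.58.1), the replicate number as a block, leaving out each animal and leaving out WT replicates 3 and 4. Adding the counts of an antisense gene to those of Sox4 or Neurog3 was chosen after seeing the data. The edgeR fit, and no other step, was tested on simulated counts with known changes. No library stood outside its group for Arid3a or a member by Dixon's test.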

Additional observations from a re-analysis of the deposited data

How the results depend on the processing

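With each animal left out in turn, 3007 to 4684 genes differed, 1131 to 2112 of them lower (fewest without WT replicate 4), and 4 to 7 of the 10 members, 1 to 6 NOTCH genes, 1 to 2 goblet, 4 to 11 enteroendocrine and 3 to 6 tuft products passed. Log2 differences ranged over -0.41 to -0.28 for Foxa2, -0.48 to -0.30 for Sox4, -0.45 to -0.30 for Sox9 and 0.36 to 0.54 for Neurod1. Ratios to Atoh1, none past the threshold, which no single ratio could reach, changed sign for Foxa2 (-0.10 to 0.024), Neurog3 (-0.0065 to 0.13) and Sox9 (-0.14 to 0.026). Spdef, Foxa3 and Arid3a kept their call under all settings run.

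Without WT replicates 3 and 4, 2143 genes differed (1472 higher, 671 lower), with 2 members, 5 partners, 1 NOTCH gene, 1 goblet, 4 Paneth, 4 enteroendocrine and 1 tuft product past the threshold. Atoh1 (-0.27), Foxa1 (-0.34), Foxa2 (-0.25) and Sox4 (-0.21) then missed it. The cause was not tested.

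With library size only, the median of all genes moved from -0.03 to -0.16, so lower calls rose from 1869 to 4030. There were 6 NOTCH, 4 goblet, 2 enteroendocrine and 3 tuft calls, and Neurog3 (-0.33) and Sox9 (-0.50) passed, while the median of the members was -0.49. The TPM fits with 0.1 or 1 added tested 18249 genes, with a median of -0.13 or -0.08. In these fits 1356 or 1339 genes were higher, goblet, enteroendocrine and tuft calls numbered 4, 2 and 3 in each, and Sox4 (-0.50 or -0.48) missed the threshold.

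Same-numbered animals did not deviate together over all genes (r = -0.157 to 0.131). Whether they shared a batch was not tested. With the replicate block, 1191 genes were lower and 1 goblet product passed, Atoh1 (-0.31) and Foxa2 (-0.35) missed the threshold and Sox9 (-0.36) passed. DESeq2 gave 6 NOTCH calls and passed Sox9 (-0.35). Without a filter, 1 goblet and 3 tuft products passed, and Foxa2 (-0.34) and Sox4 (-0.41) did not; they also missed in limma-voom (-0.35 and -0.40). The effective length offset left 3 tuft calls. Summed with antisense genes, Sox4 was at -0.27 and Neurog3 at 0.020. As mean log2 TPM in place of a sum, the marker levels differed by -0.0098 for goblet, 0.26 for tuft, -0.51 for stem, -0.12 for T cell, -1.89 for B and plasma cell and -0.0014 for neuron and glia lists, of which goblet, T cell and neuron and glia changed sign and the others missed the threshold.

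Gfi1, at 76 to 139 counts, and Neurod1 had the fewest counts of the members. The standard error of the log2 difference was widest for Neurod1 (0.175), then Gfi1 (0.155) and Sox4 (0.141), the last with far more counts. A member that missed the threshold is not thereby shown to be equal in both genotypes.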
